A study of Coturnix japonica with 54 samples.

Results

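The granins and the enzymes and trafficking proteins of the secretory granule were described over a simulated annual cycle in the quail pituitary. The group was set as 8 gene symbols, CHGA, CHGB, SCG2, SCG3, SCG5, CPE, PAM and RAB27A, and its members were the rows of the deposited count table that carry these symbols. Rows were found for 7 of the 8, among 16448 genes in all, and SCG5 was not analysed here. Pituitaries of 54 male Japanese quail (Coturnix japonica), a long-day breeding bird, had been sequenced as polyadenylated RNA on Oxford Nanopore flow cells, with 1 library per bird. The 9 groups of 6 birds were sampled in turn while the day was shortened from 16 h to 8 h of light in steps of 2 h and then lengthened again, with 2 weeks at each step. The groups 16La, 14La, 12La and 10La form the autumn-like arm, 8L is the shortest day, and 10Lv, 12Lv, 14Lv and 16Lv form the spring-like arm. All birds had first been kept on 16 h of light, so 16La is the start of the series and no group was held at a constant day length throughout. Bird age is not given in the sources used here.

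Endocrine cells of the pituitary store peptide hormones in dense-core secretory granules. Granins are acidic proteins that aggregate with the hormones in the trans-Golgi network, are packed into the same granules, and are partly cut into peptides of their own. Enzymes inside the granule trim and amidate the peptides, and Rab proteins on its surface bring it to the plasma membrane, where it waits for a releasing signal.

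The libraries were shallow and uneven, and this bears on every value given for the granule genes. Totals of largest-transcript counts ran from 2815 to 77713 per library (median 20425), and the mean per photoperiod was 33406 at 16La and 13464 at 16Lv, so that depth and arm cannot be told apart. The 9 libraries with fewer than 2000 genes detected (544 to 1568, against 2306 to 9757 in the other 45) stood apart, with 2 in the autumn arm, 1 at 8L and 6 in the spring arm. ACOT9, an acyl-CoA thioesterase, took 3.23% to 27.4% of a library's counts. The pituitary label was matched by POMC and PRL, which had counts in all 54 birds, while growth hormone and LHB had no row that was used here.

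Summed over the 7 genes, the granule group took between 0.107% and 2.88% of a library's counts (median 1.60%). CHGA, chromogranin A, supplied 17195 counts and was seen in all 54 birds. CHGB, chromogranin B, had 2245 counts in 53 birds, SCG3, secretogranin III, 615 in 51, and SCG2, secretogranin II, 382 in 49. CPE, carboxypeptidase E, had 605 counts in 51 birds, PAM, the peptide-amidating monooxygenase, 154 in 45, and RAB27A, a small GTPase of granule docking, 96 in 39. CHGA, CHGB, SCG2 and CPE were each counted on 1 transcript row. SCG3 had 3 rows, PAM 4 and RAB27A 7, and for these the largest transcript count of each bird was used. All 7 passed the filter on low counts that 1460 genes passed. Below, a level is in CPM, the gene's share of the library's largest-transcript total scaled to 1000000, and levels are compared between birds for a given gene and never between genes, since counts were not divided by transcript length.

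None of the 7 genes differed among the 9 photoperiods past the threshold of an adjusted p of 0.05 in edgeR's quasi-likelihood F-test, with p-values adjusted by Benjamini-Hochberg over all 1460 genes. Over all genes that test called 20, or 1.37%, and 81 had an unadjusted p under 0.05. Among the granule genes the lowest unadjusted p was 0.0812, for CHGB, and every adjusted p was 0.999. DESeq2 and limma also called 0 of the 7. In the 18 comparisons made, which gave 126 tests on granule genes, 5 had an unadjusted p under 0.05 and the lowest adjusted p was 0.324. Over all genes, between 1.85% and 9.73% had an unadjusted p under 0.05 in a comparison. The highest share was between the spring-like and autumn-like arms, where 2 of those 5 granule tests fell. The p-values set each difference against the spread between birds of a photoperiod. With 1 library per bird, that spread also holds differences between libraries and the pattern of bird ranks given below. In whole pituitaries, fewer cells of a type and less RNA per cell cannot be told apart.

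CHGA, an acidic granin found in most endocrine granules, was high at every photoperiod, and its groups overlapped widely. At 16La it ran from 7129 to 19695 CPM (median 14750), at 14La from 6482 to 18723 (11526), at 12La from 1310 to 19289 (11948) and at 10La from 885 to 17007 (13176). At 8L the birds lay between 2130 and 25802 CPM (median 16030). In the spring arm CHGA ran from 917 to 24234 CPM at 10Lv (median 13065), from 2919 to 21514 at 12Lv (11929), from 1882 to 21264 at 14Lv (13122) and from 3650 to 20239 at 16Lv (12274). The highest bird of all was at 8L, and the lowest values at 12La, 10La, 8L, 10Lv, 12Lv and 14Lv each came from a library with fewer than 2000 genes. The lowest group mean was 10973 ± 6108 CPM at 12La and the highest 14165 ± 8515 at 8L (SD, n = 6 each). No neighbours in the order of the 9 means differed by more than the smaller of their SDs. Sorting the means makes such gaps small whatever the distance from end to end, so no conclusion is drawn from them. At 8L against 16La the log2 fold change was -0.11 ± 0.53 (SE; 95% interval -1.17 to 0.95), which is a fold of 0.444 to 1.94. The slope on hours of light was -0.01 ± 0.05 log2 units per hour (SE; 95% interval -0.11 to 0.08). An estimate this imprecise does not show that CHGA was constant. The sign of both was not stable, as several other scalings and filters gave small positive values.

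CHGB, the second chromogranin, had its highest medians at 14La and 16La and its lowest at 10Lv, 16Lv and 8L, and all groups overlapped. At 16La it ran from 769 to 2744 CPM (median 1995), at 14La from 1053 to 3052 (2445), at 12La from 146 to 3925 (1559) and at 10La from 147 to 1902 (1375). At 8L the birds lay between 183 and 1677 CPM (median 1093). In the spring arm CHGB ran from 153 to 1616 CPM at 10Lv (median 903), from 154 to 2901 at 12Lv (1345), from 0 to 2610 at 14Lv (1535) and from 195 to 2842 at 16Lv (1067). Medians were lower at each step from 14La to 10Lv and higher again at 12Lv and 14Lv, with the spread within each group wider than any of these steps. The highest mean was 2215 ± 858 CPM, at 14La, and the lowest 897 ± 605, at 10Lv (SD, n = 6 each), a ratio of 2.47. No neighbours in the order of means differed by more than the smaller SD, from which, as for CHGA, no conclusion is drawn. The 1 bird with no CHGB count was a 14Lv library with fewer than 2000 genes.

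**Figure D1:**
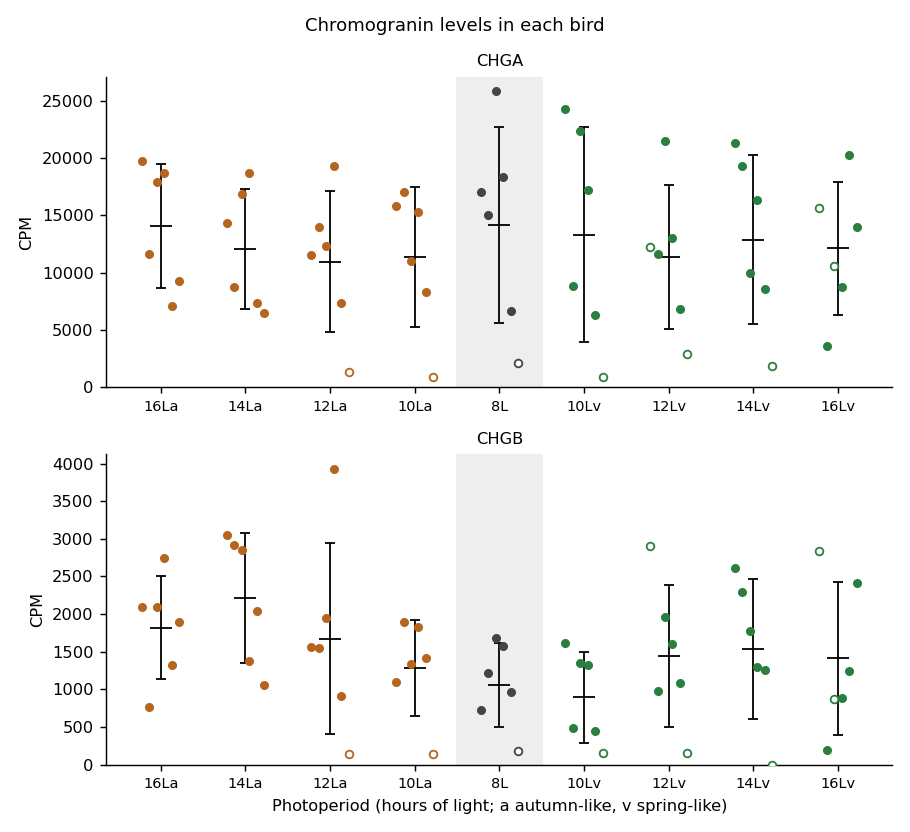
CPM of CHGA (top) and CHGB (bottom) in each of 54 birds, by photoperiod in the order of sampling, with 6 birds each. Points are birds, open points are libraries with fewer than 2000 genes, bars are mean and SD, and the grey band marks 8L. CHGA means lie between 10973 and 14165 CPM with wide overlap, while CHGB means run from 2215 CPM at 14La to 897 at 10Lv.

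For CHGB the log2 fold change of 8L against 16La was -0.87 ± 0.49 (SE; 95% interval -1.84 to 0.11; adjusted p = 0.999 by edgeR's quasi-likelihood test), which is a fold of 0.279 to 1.08. The 16La birds were all above 2 of the 8L birds, 1 of which was a library of low detection. At 16Lv against 8L it was 0.07 ± 0.52 (SE; adjusted p = 0.995), beside a median of -0.23 over all genes, and its slope was 0.08 ± 0.05 log2 units per hour of light (SE; 95% interval -0.01 to 0.17; adjusted p = 0.836). The edgeR test of 8L against 16La called 0.411% of all genes, that of 16Lv against 8L called 0.205%, and that of the slope called 0.685%, and no granule gene was among them.

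The call for CHGB among photoperiods depended on which libraries and genes entered the test. Without the 9 libraries of low detection it passed (adjusted p = 0.0426 by edgeR), as 1 of 27 genes called out of 2061, or 1.31%. In that subset its means ran from 2215 ± 858 CPM at 14La (SD, n = 6) and 1979 ± 1149 at 12La (SD, n = 5) to 1046 ± 540 at 10Lv (SD, n = 5). With no filter on low counts CHGB passed too (adjusted p = 0.0140 by edgeR), with 0.292% of 16447 genes called. Among 54 fits that each left out 1 library, it also passed without 16La replicate 6 (adjusted p = 0.0352), without 12La replicate 5 (0.0106) or without 10La replicate 2 (0.0447), each time by edgeR. The share of all genes called in those fits is not given here, and with all birds the adjusted p for CHGB was 0.999 by edgeR. With library totals and no scaling factor the adjusted p was 1.00, and also 1.00 when the 9 libraries were left out as well. When the 6 birds of each photoperiod were ranked by bird number and these ranks entered as blocks, a fit added after the data had been seen, CHGB passed with the TMM scaling used throughout (adjusted p = 0.0163 by edgeR, with 2.67% of genes called) and did not pass with no scaling factor (adjusted p = 0.539 by edgeR). Among the markers of other cell types, COL1A2, SPARC and MBP, 2 matrix genes and a myelin gene, also passed among photoperiods (adjusted p = 0.00167, 0.00529 and 0.000420 by edgeR), and their part in the CHGB call was not tested.

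SCG2 and SCG3 are granins of the secretogranin group. SCG2 is the precursor of the peptide secretoneurin, and SCG3 binds CHGA and cholesterol-rich granule membrane in mammals. SCG2 was counted in few reads, with 19 to 80 counts per photoperiod, so that 1 read in a small library moved it by a large amount. Its medians lay between 201 CPM at 14La and 340 at 16La, its lowest bird was at 0 in 5 photoperiods and its highest bird, at 10Lv, had 904 CPM. The log2 fold change at 8L against 16La was -0.22 ± 0.45 (SE; 95% interval -1.11 to 0.67) and the slope -0.04 ± 0.04 per hour (SE).

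SCG3 ran from 364 to 729 CPM at 16La (median 490), from 425 to 681 at 14La (568) and from 253 to 695 at 12La (446). It ran from 0 to 592 at 10La (median 385), from 122 to 685 at 8L (311), and from 0 to 723 at 10Lv (392). At 12Lv it ran from 154 to 599 CPM (median 266), at 14Lv from 0 to 1297 (431) and at 16Lv from 311 to 1066 (421). The birds at 16La and 14La were the most alike, and the highest value of all was 1 bird at 14Lv. The log2 fold change at 8L against 16La was -0.46 ± 0.38 (SE; 95% interval -1.21 to 0.28), and the slope was 0.06 ± 0.04 per hour (SE; adjusted p = 0.883 by edgeR). At a matched 12 h of light, SCG3 had a log2 fold change of -0.82 ± 0.41 in spring against autumn (SE; unadjusted p = 0.0436, adjusted p = 0.886 by edgeR), beside a median of -0.23 over all genes, and 0.479% of genes were called there. At the same 12 h the markers COL1A2, SPARC and MBP were lower in spring and passed, with log2 fold changes of -2.85 ± 0.66, -1.76 ± 0.42 and -5.94 ± 1.42 (SE; adjusted p = 0.00880, 0.0114 and 0.0267 by edgeR). Their part in the SCG3 estimate was not tested.

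CPE removes basic residues from the ends of prohormone fragments and was the most even of the 7 genes between birds, with a coefficient of variation of 49.4% over the 54 birds and 37.5% over the 45 libraries of higher detection. Its medians lay between 380 CPM at 12Lv and 537 at 10La, and single birds ranged from 0 at 10La, 10Lv and 12Lv to 999 at 14La. The 3 birds at 0 had fewer than 2000 genes detected. The log2 fold change at 8L against 16La was 0.05 ± 0.37 (SE; 95% interval -0.68 to 0.78, a fold of 0.626 to 1.72). The slope was -0.04 ± 0.04 per hour (SE).

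PAM adds the terminal amide that many neuropeptides and hormones carry, and it had the lowest p values between successive photoperiods, from very few counts. At 16La it ran from 0 to 139 CPM (median 76.9), and at 14La from 55.4 to 250 (median 161). Of the 6 birds at 14La, 5 lay above every bird at 16La, with 31 counts in all at 14La against 15 at 16La. The log2 fold change for this step was 1.14 ± 0.54 (SE; unadjusted p = 0.0366, adjusted p = 0.999 by edgeR). In spring, PAM ran from 98.5 to 470 CPM at 14Lv (median 259) and from 0 to 178 at 16Lv (median 20.5). Of the 6 birds at 16Lv, 4 lay below every bird at 14Lv, the groups overlapped, and the counts were 23 at 14Lv and 5 at 16Lv. Among those 4 birds, 16Lv replicates 1 and 3 had 0 PAM counts in libraries of low detection, with totals of 2815 and 5691. From 14Lv to 16Lv the log2 fold change was -1.72 ± 0.72 (SE; unadjusted p = 0.0178, adjusted p = 1.00 by edgeR). The highest bird at 14Lv had 2 counts in a library of low detection. At 8L against 16La the log2 fold change was 0.52 ± 0.61 (SE; 95% interval -0.69 to 1.73), and the slope was -0.05 ± 0.06 per hour (SE).

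RAB27A helps dock granules at the plasma membrane and was the least covered member, with 4 to 16 counts per photoperiod. Its medians lay between 18.8 CPM at 10Lv and 131 at 14Lv, and at 8 of the 9 photoperiods at least 1 bird had none. The highest bird, at 12Lv, had 306 CPM. The slope was 0.10 ± 0.07 log2 units per hour (SE; 95% interval -0.03 to 0.24), and the log2 fold change at 8L against 16La was -0.50 ± 0.73 (SE; 95% interval -1.95 to 0.94). That interval spans a fold of 0.259 to 1.92, so the estimate does not show that RAB27A was constant.

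**Figure D2:**
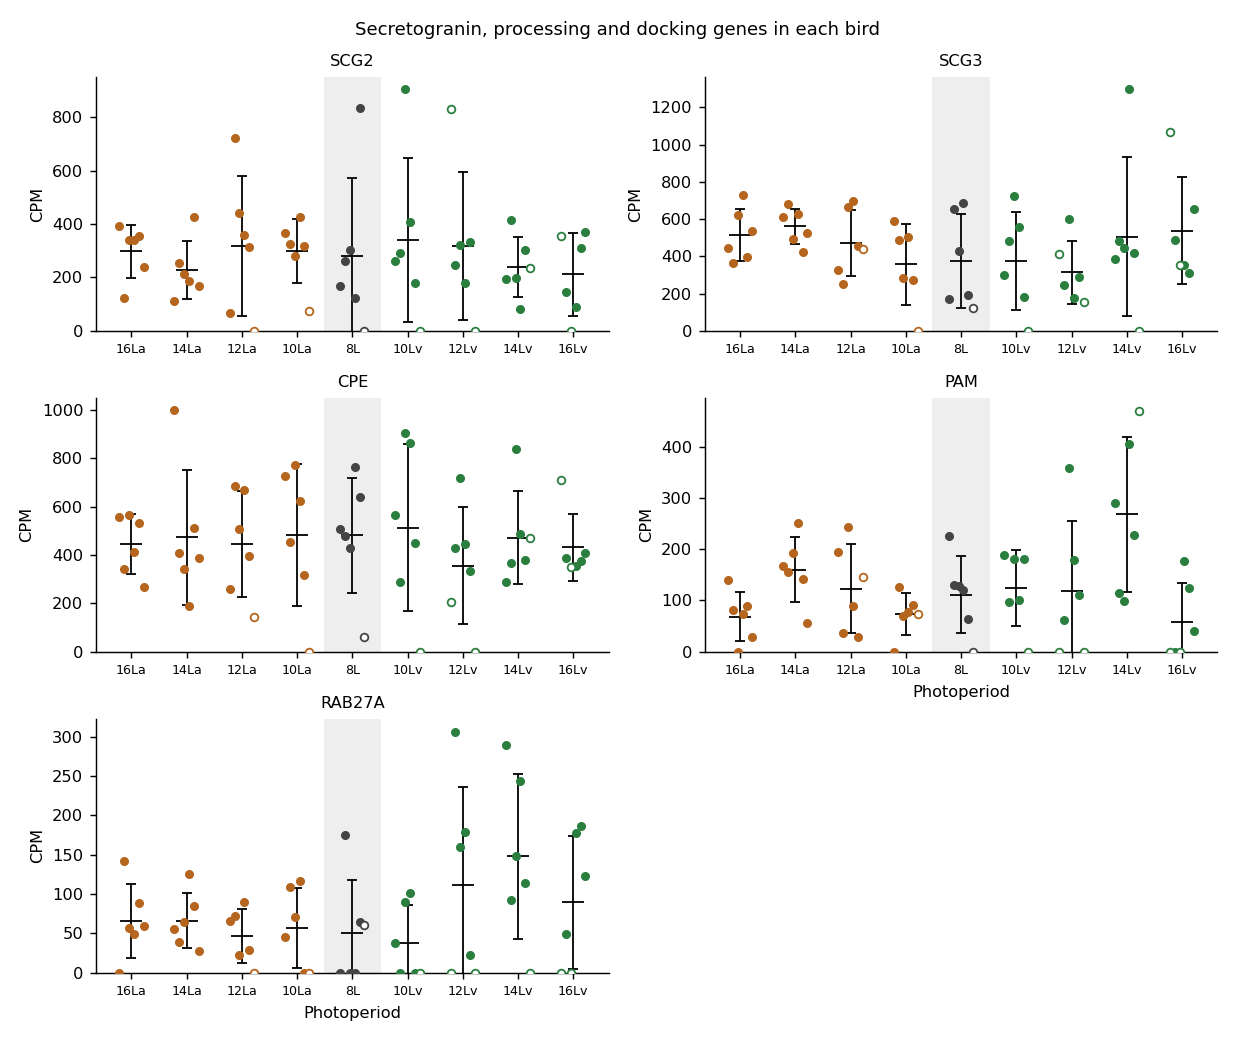
CPM of SCG2, SCG3, CPE, PAM and RAB27A in each of 54 birds, by photoperiod. Points are birds, open points are libraries with fewer than 2000 genes, bars are mean and SD (n = 6), cut off at 0, and the grey band marks 8L. Many values at 0 are open points, and the PAM birds at 14Lv lie between 98.5 and 470 CPM against 0 to 178 at 16Lv.

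Over the 8 successive steps of the cycle no granule gene passed, and only those 2 steps of PAM had an unadjusted p under 0.05 among 56 tests. Over all genes, edgeR called 0.616% at the step from 14La to 12La, 0.205% from 10Lv to 12Lv, and 0% at the other 6 steps (from 16La to 14La, 12La to 10La, 10La to 8L, 8L to 10Lv, 12Lv to 14Lv and 14Lv to 16Lv). At those 6 steps, 27 to 56 of the 1460 genes had an unadjusted p under 0.05, and DESeq2 called between 0 and 2 genes.

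The spring-like and autumn-like arms were then compared at matched day lengths. CHGB was the granule gene with the lowest p, and its estimate was lower in spring at each of the 4 day lengths. Over the autumn arm CHGB ran from 146 to 3925 CPM (median 1695, mean 1749 ± 904, SD, n = 24), and over the spring arm from 0 to 2901 (median 1276, mean 1323 ± 864, SD, n = 24), so the arms overlapped over most of their range. The log2 fold change of spring against autumn, averaged over 10, 12, 14 and 16 h, was -0.69 ± 0.25 (SE; 95% interval -1.19 to -0.19; unadjusted p = 0.00798, adjusted p = 0.324 by edgeR). The median over all genes was -0.19 in this comparison, so CHGB lay 0.49 below it. At single day lengths the log2 fold changes were -0.80 ± 0.50 at 16 h, -0.78 ± 0.48 at 14 h, -0.65 ± 0.49 at 12 h and -0.53 ± 0.51 at 10 h (SE), beside medians over all genes of -0.27, -0.13, -0.23 and -0.11 in that order. Of all genes, edgeR called 0.137% between the arms, 0.0685% at 16 h, 0.0685% at 14 h and 0% at 10 h. Between the arms 142 of the 1460 genes, or 9.73%, had an unadjusted p under 0.05 by edgeR. At 10 h 37 genes had an unadjusted p under 0.05 and DESeq2 called 1.

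The scaling of the libraries moved this comparison. With library totals and no scaling factor the median over all genes was 0.04 and CHGB was at -0.42 ± 0.26 (log2 fold change ± SE; adjusted p = 1.00 by edgeR). Without the 9 libraries of low detection, CHGB was at -0.70 ± 0.19 in the edgeR fit (SE; adjusted p = 0.0792), and at -0.47 ± 0.19 with no scaling factor as well (SE; adjusted p = 0.934). It passed with no filter on low counts (adjusted p = 0.0188 by edgeR, with 0.0669% of genes called) and without 12La replicate 5 (adjusted p = 0.0267 by edgeR). For the fit without that library the share of all genes called is not given here. The edgeR estimate with the log2 library total as a covariate was -0.22 ± 0.27 (SE; adjusted p = 0.998). Blocked on bird rank it was -0.75 ± 0.18 with TMM scaling (SE; adjusted p = 0.0173 by edgeR, with 0.959% of genes called) and -0.50 ± 0.20 with no scaling factor (SE; adjusted p = 0.606 by edgeR), beside medians over all genes of -0.21 and 0.01. In the blocked fit with TMM the matrix marker SPARC passed between the arms as well, at -0.83 ± 0.20 (log2 fold change ± SE; adjusted p = 0.00444 by edgeR). For each comparison and scaling, 3 separate sets of counts were simulated. In each set, 200 of 1460 genes drawn at random were changed 2-fold or 4-fold. Per simulation, the arms gave 39.3 false calls with TMM and 295 with no scaling factor. For 8L against 16La these were 1.67 and 5. The changed genes and the counts differed between the scalings, so these values do not compare one scaling with the other. The real comparison of the arms called 0.137% of genes in all, so the simulated setting differs from the data. The p-values between the real arms can be too small under either scaling, which these simulations cannot decide.

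The other 6 granule genes did not pass between the arms either. SCG3 was at -0.41 ± 0.20 (log2 fold change ± SE; unadjusted p = 0.0413, adjusted p = 0.475 by edgeR), SCG2 at -0.32 ± 0.24, CPE at -0.27 ± 0.20 and CHGA at -0.23 ± 0.27. PAM and RAB27A had positive estimates, 0.10 ± 0.34 and 0.37 ± 0.38 (log2 fold change ± SE). The median of the 7 was -0.27, beside -0.19 over all genes. For a different slope on day length in spring than in autumn, 0 genes were called (0% by edgeR and 0 genes by DESeq2; the unadjusted edgeR p was under 0.05 for 85 genes), and CHGB had a slope difference of -0.09 ± 0.06 per hour (SE; adjusted p = 0.896 by edgeR).

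For each list of markers of other cell types that had counts, the highest summed level was lower in the spring arm. The medians did not all differ as much. Of the 6 markers that were tested none passed averaged over the 4 day lengths. COL1A2, SPARC and MBP passed at 12 h and among photoperiods, as given above, and COL3A1, DCN and CD74 passed in neither. Of 6 fibroblast and matrix genes all had counts in both arms, and their summed level ran from 146 to 3322 CPM in autumn (median 731) and from 0 to 1356 in spring (median 567). The 2 myelin genes with a row reached 5342 CPM in 12La replicate 5, the library without which CHGB passed (its CHGB level was 909 CPM), and at most 361 CPM in spring, with medians of 40.7 and 0 CPM. Counts of endothelial genes (4 of 4) and leukocyte genes (3 of 3) were 47 and 54 of 764569 in autumn and 21 and 17 of 392353 in spring. Median summed levels of the endothelial genes were close, at 38.7 CPM in autumn and 34.0 in spring, and those of the leukocyte genes were 51.5 and 0. The 3 posterior pituitary genes with a row had 6 counts in autumn and 1 in spring, AVP and OXT not being among them. None of the 8 erythrocyte genes had a row used here. The part of these cells in the CHGB values was not tested.

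**Figure D3:**
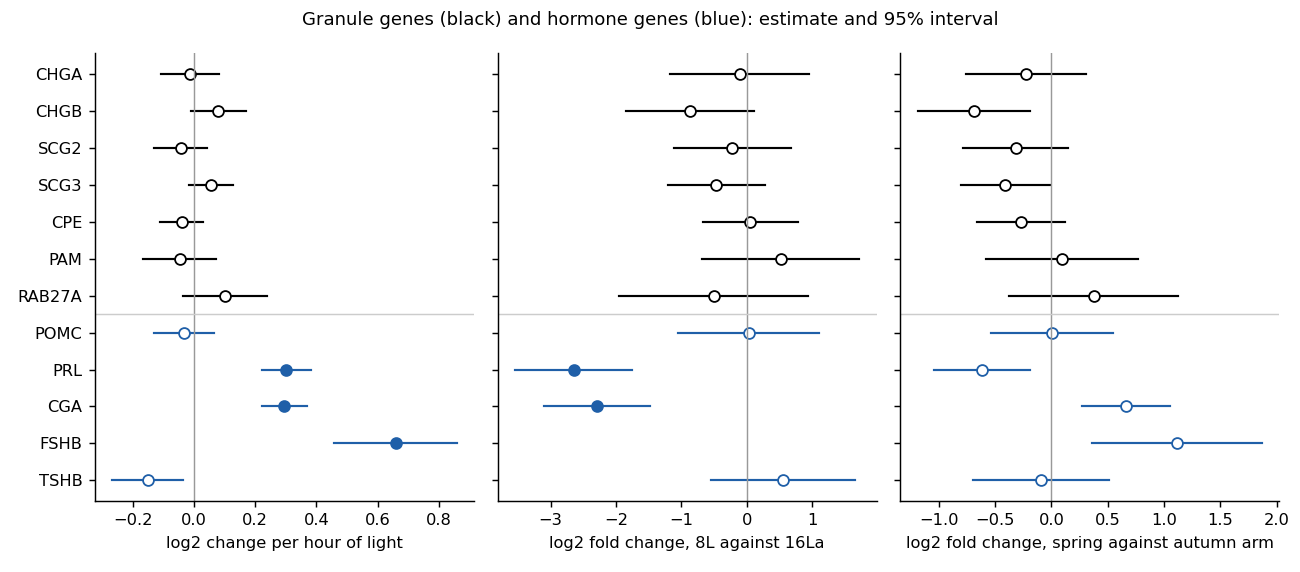
Estimates (points) with 95% intervals (lines) for the 7 granule genes in black and 5 hormone genes in blue. Panels show the slope in log2 units per hour of light, the log2 fold change of 8L against 16La, and that of the spring against the autumn arm. Filled points passed an adjusted p of 0.05. All granule genes are open, PRL and CGA are filled in the first 2 panels, and FSHB, filled for the slope, is left out of the middle panel because all birds at 8L had 0 counts.

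CHGB was also set against CHGA within each bird, as a ratio of counts that uses neither the library total nor a scaling factor. The tests of this ratio added a constant to both counts, so the log2 ratios of libraries with few counts still depended on depth. The ratio was chosen after the values had been seen. SCG2, SCG3 and CPE were treated in the same way, so that 16 tests were made. CHGB counts per 100 CHGA counts ran from 6.61 to 20.5 at 16La (median 13.2), from 7.36 to 33.4 at 14La (19.1), from 11.1 to 20.3 at 12La (12.9) and from 6.92 to 16.9 at 10La (12.0). At 8L they ran from 4.30 to 14.4 (median 8.34). In the spring arm they ran from 5.43 to 16.7 at 10Lv (median 6.90), from 5.26 to 23.7 at 12Lv (10.7), from 0 to 17.8 at 14Lv (12.1) and from 5.33 to 18.2 at 16Lv (9.27). At 10Lv, 5 birds were close together near the low end of all groups, and the sixth was a library of low detection.

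With 0.5 added to each count, the mean log2 ratio of CHGB to CHGA was lower by 0.49 in spring than in autumn at matched day lengths (log2 difference -0.49; permutation test within day lengths, two-sided p = 0.00856, adjusted p = 0.137 over the 16 tests). It was lower at 8L than at 16La by a log2 difference of -0.66 (exact permutation test, two-sided p = 0.0823, adjusted p = 0.439). At 16Lv against 8L the difference was 0.33 (exact permutation test, adjusted p = 0.868), and the slope was 0.06 per hour of light (permutation test, adjusted p = 0.439). Of the 16 tests none passed after adjustment. Without the 9 libraries of low detection the difference between the arms was -0.54 (permutation p = 0.00193, adjusted p = 0.0309), the single test of 16 that passed there. With 1 added to each count it was -0.42 (permutation p = 0.0209, adjusted p = 0.335). The log2 ratios of SCG2, SCG3 and CPE to CHGA differed between the arms by 0.02, -0.12 and 0.06, with adjusted permutation p values of 0.940, 0.868 and 0.868.

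**Figure D4:**
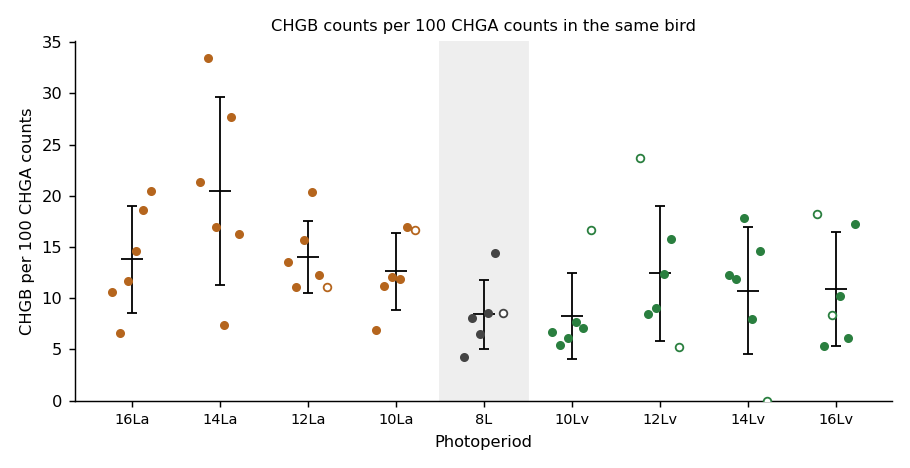
CHGB counts per 100 CHGA counts in each bird, by photoperiod. Points are birds, open points are libraries with fewer than 2000 genes, bars are mean and SD (n = 6), and the grey band marks 8L. Medians are 13.2 at 16La and 19.1 at 14La, 8.34 at 8L and 6.90 at 10Lv, with overlap among groups.

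Some of the hormones that the granules carry, but not all, gave a contrast to these genes. Of the 5 hormone genes tested, 3 rose with day length (slopes of 0.30 ± 0.04 for CGA, the shared glycoprotein hormone alpha subunit, 0.30 ± 0.04 for PRL, prolactin, and 0.66 ± 0.10 for FSHB, the follicle-stimulating hormone beta subunit, in log2 units per hour ± SE). Their adjusted p values by edgeR were 6.23e-11, 9.34e-10 and 1.25e-05. TSHB, the thyroid-stimulating hormone beta subunit, had a slope of -0.15 ± 0.06 (SE; adjusted p = 0.470 by edgeR). POMC had a slope of -0.03 and did not pass either. At a matched 12 h, CGA and FSHB were higher in spring than in autumn and passed in the edgeR test. Their log2 fold changes were 2.66 and 4.14, where 0.479% of all genes were called. PRL was at -0.09 there, beside a median of -0.23 over all genes, and did not pass. The median slope of the 5 hormone genes was 0.30, that of the 7 granule genes -0.01 and that of all genes -0.01. The intervals of the CHGA and CHGB slopes ended at 0.08 and 0.17 per hour, below the estimates for CGA, PRL and FSHB, and the differences themselves were not tested.

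The amount of CHGA message per PRL or CGA message differed widely along the cycle, as a description with no test. CHGA counts per 100 PRL counts had a median of 39.9 at 16La (25.6 to 55.1), 193 at 8L (71.4 to 570) and 64.3 at 16Lv (22.3 to 234). CHGA per 100 CGA counts averaged 120 ± 71.0 at 16La (44.0 to 222) 537 ± 377 at 8L (81.4 to 1111) and 188 ± 147 at 16Lv (14.7 to 440; SD, n = 6 each). Against POMC, the corticotrophin precursor, CHGA had a median of 62.5 per 100 counts at 16La (33.8 to 79.9), 58.2 at 8L (37.3 to 86.3) and 31.0 at 16Lv, where the birds ran from 14.6 to 612. The ranges at 8L and 16La did not overlap for PRL, and they overlapped for CGA and POMC. PRL itself had a log2 fold change of -2.65 ± 0.46 (SE) between these photoperiods, beside -0.11 ± 0.53 (SE) for CHGA. How often such ranges separate for other pairs of genes was not tested. The shortest day did not have the highest mean ratio to CGA. This mean was 585 in the 12La birds (range 42.9 to 965) and 552 in the 10La birds (range 85.7 to 1308), with wide overlap with 8L.

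Other genes of the granule were sparse, and none of those tested passed for the slope, at 8L against 16La or between the arms. Of 15 prohormone convertases and other processing enzymes, 12 had a row and 3 were tested. QPCT, a glutaminyl cyclase, had 0.12 ± 0.06 per hour, CPZ, a carboxypeptidase, 0.04 ± 0.08, and CTSL, a cathepsin, -0.02 ± 0.07 (slope ± SE). At 8L against 16La, QPCT was at -1.32 ± 0.64 (log2 fold change ± SE; adjusted p = 0.972 by edgeR). Between the arms CPZ was at -1.27 ± 0.39 (log2 fold change ± SE; adjusted p = 0.156 by edgeR). PCSK1, the convertase that cuts many prohormones, had 42 counts in 24 birds and was not tested. Of 15 granule membrane proteins, 12 had a row and 4 were tested, with slopes of 0.12 ± 0.07 for TMEM163, 0.06 ± 0.05 for PTPRN2, -0.05 ± 0.05 for ATP6AP1 and 0.03 ± 0.05 for ATP6AP2 (per hour ± SE). PTPRN2 is a phosphatase-like granule protein, and the ATP6AP proteins are accessory subunits of the proton pump. Of 23 docking and release genes, 20 had a row and 3 were tested. CADPS, a priming factor of dense-core granules, had a slope of 0.10 ± 0.08, RAB3C of 0.06 ± 0.06 and RAB3B of -0.04 ± 0.07 (per hour ± SE), and SYT4, a synaptotagmin, had 64 counts and was not tested. VGF, a granin-like precursor, had 55 counts in 24 birds and was not tested. The median slopes of these 3 lists were 0.04, 0.05 and 0.06, beside -0.01 over all genes.

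Levels of the granule genes followed how many genes a library detected. In the 9 libraries of low detection CHGA had a median of 2130 CPM against 14004 in the other 45, and CHGB 154 against 1555. Pooled over libraries, CHGA was lower there by a log2 difference of -1.90 and CHGB by -1.80, beside a median of -1.15 over 1081 genes with 100 or more counts, of which 1018 were lower. CPE was at -1.81, SCG2 at -1.48, SCG3 at -1.32 and PAM at -0.90, so PAM was less lowered than the median gene. ACOT9 was higher there by 0.75 on the log2 scale. Not all 9 were alike, as 3 spring libraries among them had CHGA between 10543 and 15631 CPM. CHGB was at 2901 CPM in 12Lv replicate 1 and at 2842 in 16Lv replicate 1, both of low detection and each the highest bird of its photoperiod.

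Levels of CHGA and CHGB also differed with the place of a bird within its photoperiod when the 6 birds were ranked by bird number. Of the 9 libraries of low detection, 7 belonged to the bird ranked 6, and 12Lv replicate 1 and 16Lv replicate 1 did not. Low detection and rank 6 thus largely coincided, and their parts in these levels were not tested. The bird ranked 5 had CHGA between 3650 and 8593 CPM (median 7129), below the birds ranked 1 to 4 of its own photoperiod in all 9 photoperiods, and these 36 birds ran from 8712 to 25802 CPM (median 16048). Libraries of rank 5 were not of low detection, with 2998 to 6491 genes. CHGB had a median of 1084 CPM at rank 5 and 154 at rank 6, against 1245 to 1943 at ranks 1 to 4. The labels used here do not say whether a bird's rank marks a day, a batch or a flow cell, and its cause was not tested. Ranking within a photoperiod puts 1 bird of each rank in every group by construction, so this balance says nothing of the design. Differences between ranks lie within the groups and are part of the spread there.

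**Figure D5:**
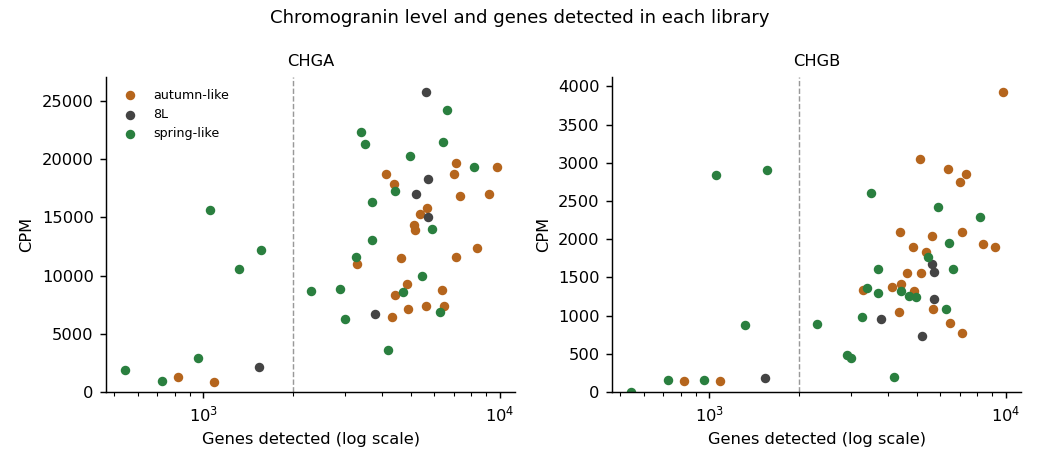
CPM of CHGA (left) and CHGB (right) against the number of genes detected in each of 54 libraries, on a log axis, coloured by arm. The dashed line is at 2000 genes. Of the 9 libraries to its left, 6 have CHGA between 885 and 2919 CPM, and the medians of CHGA are 2130 CPM to the left and 14004 to the right.

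Within the 45 libraries of higher detection, CHGA and CHGB varied together between birds (Pearson's r = 0.627, permutation p adjusted over 10 pairs = 0.000200; Spearman's rho = 0.50, adjusted permutation p = 0.00220; r = 0.425 without the 2 birds farthest from the median of CHGA). CHGB and SCG3 had r = 0.492 (adjusted permutation p = 0.00295) and rho = 0.547 (adjusted permutation p = 0.000500), with r again 0.492 without the 2 extreme birds. SCG2 and SCG3 had the lowest values, r = 0.119 and rho = 0.236 (adjusted permutation p = 0.439 and 0.120). In the 9 other libraries rho was 0.700 for CHGA and CHGB. Within single ranks of the bird number, rho of CHGA and CHGB was 0.15, 0.27, 0.00 and 0.20 at ranks 1 to 4. At ranks 5 and 6 it was 0.67 and 0.78 (n = 9 each, given as a description). Unlike the pooled value, these take in the libraries of low detection. Whether the pooled value holds within ranks was not tested. For CHGB and SCG3 rho ran from -0.067 to 0.695 within ranks. These points share library depth and total, photoperiod was not removed, and CPM values of a library are tied to a common sum. The permutations moved birds freely over photoperiods and ranks, so their p-values take no account of differences that birds of a photoperiod or rank share.

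The genes whose levels were most like those of the granins over the 54 birds were of several kinds. For CHGA they were EEF2, a translation elongation factor (rho = 0.788), ACTB, an actin (0.786), and HSP90AA1, a chaperone (0.761). For CHGB they were BSG, a membrane glycoprotein (0.791), ACTG1, an actin (0.738), and PRL (0.725). For SCG3 they were HSP90B1, a chaperone (0.626), BSG (0.622) and YWHAE, an adaptor protein (0.584). These are Spearman's rho of log2 CPM over 54 birds among 1245 genes, given as a description. Over the 45 libraries of higher detection the same pairs had rho between 0.431 and 0.707.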

How the data were processed

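Each of the 54 libraries came from the pituitary of 1 male quail, and each bird's photoperiod was taken from its treatment label. Members and gene lists were chosen with earlier results of these data known. The authors deposited estimated counts per transcript and a table of CPM that behaves as a normalised signal per gene, since its columns sum to between 327092 and 1790364. The authors' tools were, per the submitters' processing notes, Salmon 0.14.2, minimap2 2.17 and edgeR 3.24.3. Which step each served, and the genome build, is not given in the sources used here. All 40282 transcript rows matched the gene table of Coturnix japonica 2.1 by accession. Transcripts of a gene can carry the same read, so the largest estimated count per gene and bird was used and rounded.

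Genes were tested in R 4.3.3 with the quasi-likelihood F-test of edgeR 4.0.16 (libraries scaled by TMM, genes filtered by filterByExpr at a minimum count of 3, all 54 birds, 1 mean per photoperiod, 45 residual degrees of freedom). On simulated counts with known changes it made few false calls for 8L against 16La and the slope, and many for the spring against the autumn arm. TMM and no scaling factor were run on separate draws and are not compared. At 8L against 16La it called 9.67% of the simulated 2-fold changes, so few false calls there do not show that its p-values were right. The simulated setting differs from the data, as given above. Slopes and arm differences are contrasts of the photoperiod means. Fold changes carry SE and t-based 95% intervals. Ratios within a bird used 0.5 added to both counts and exact or 100000-resample permutations. Alternatives included DESeq2 1.42.0 and limma 3.58.1 on log2 of the deposited signal plus 1 or 10. Named genes were all members, up to 4 genes of each other list by slope p and then total count, the 3 genes most like each of the 3 members with most counts, and the markers; POMC is named as a marker.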

Additional observations from a re-analysis of the deposited data

Results flagged for a closer look

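In 5 of 63 sets of 6 birds, 1 per granule gene and photoperiod, the highest bird stood apart from the other 5 by Dixon's gap ratio, above its 95% critical value for 6 values. Chance alone flags about 1 in 20 such sets, or 3.15 of 63. SCG2 was at 834 CPM in 8L replicate 5, where the next bird had 301. SCG3 was at 1297 CPM in 14Lv replicate 4, where the next bird had 482. CPE was at 837 CPM in 14Lv replicate 3, beside 486 in the next bird, and at 710 CPM in 16Lv replicate 1, beside 409. RAB27A was at 175 CPM in 8L replicate 2, beside 64.1. These values rest on 13, 16, 17, 2 and 4 counts in that order, and 16Lv replicate 1 is a library with fewer than 2000 genes. No CHGA, CHGB or PAM bird stood apart in this way.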

How the results depend on the processing

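No granule gene passed in any of the 11 kinds of comparison, and this count of 0 held under the other settings with the exceptions named here. Among photoperiods 1 gene, CHGB, passed with no filter and without the 9 libraries of low detection, and between the arms CHGB passed with no filter. With birds ranked by number within each photoperiod as a replicate block (TMM) 1 gene, CHGB, passed in each of these 2 comparisons, and with the block and no scaling factor 0 passed in any. Leaving out each library in turn gave 0 to 1 genes in both comparisons. The log2 ratio of CHGB to CHGA between the arms passed without the 9 libraries (-0.54), and it ran from -0.56 to -0.44 with 1 library left out, with adjusted permutation p values of 0.0274 to 0.252, passing without 14La replicate 4, 10Lv replicate 6 or 12Lv replicate 1. The cause was not tested.

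Estimates near 0 changed sign, none of them past the threshold. The CHGA slope per hour was 0.0039 with RLE scaling, 0.00084 with a minimum count of 10, 0.0016 with no filter, 0.0053 with DESeq2, 0.041 and 0.040 with limma (1 and 10 added), and 0.020 and 0.035 with the replicate block (TMM and no scaling). CHGA at 8L against 16La was 0.15 with the log2 total as a covariate, 0.0036 without the 9 libraries, 0.014 with no scaling factor, 0.24 with both, and 115 CPM higher on average in the permutation test. SCG2 had slopes of 0.051 and 0.017 with limma, and at 8L against 16La 0.0027 with the covariate and 0.14 with no scaling factor and without the 9 libraries. CPE had slopes of 0.10 and 0.054 with limma, and at 8L against 16La -0.19 with no filter, -0.044 with summed transcripts, -0.44 and -0.41 with limma -0.020 without ACOT9 in the totals and -0.0017 with the replicate block (TMM). PAM had slopes of 0.018 with summed transcripts and 0.026 with limma (10 added). CHGB at 16Lv against 8L was -0.080 and -0.074 with limma, -0.015 without the 9 libraries and -0.040 with no scaling factor as well. With 1 library left out, the CHGA slope ran from -0.021 to 0.016 and its 8L against 16La from -0.46 to 0.026. The SCG2 slope ran from -0.059 to 0.0028, CPE at 8L against 16La from -0.20 to 0.14 and CHGB at 16Lv against 8L from -0.40 to 0.33.

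The labels do not pair birds of the same rank. The block of ranks was added after the data had been seen. Of 216 pairs of same-ranked birds from different photoperiods, 112 had deviations that correlated over 0.1 (lowest -0.10), and 37 of 54 birds were closest to their own rank, a hint from the data and not from the design. Libraries of 2815 to 77713 counts limit every gene, CHGA included, which had 6 to 19 counts in 5 libraries, and 3 counts in the smallest library are 1066 CPM.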
